A study of Mus musculus with 6 samples.

Results

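The genes described here encode the respiratory chain and the ATP synthase, the inner mitochondrial membrane complexes that make most of the ATP of heart muscle. Members were taken by symbol: every gene beginning with Nduf, Uqcr or Atp5, or with Cox4 to Cox8, together with Sdha, Sdhb, Sdhc, Sdhd, Cyc1 and Cycs. The rule used no measured value. It found 86 of the 12393 genes that had a probe set of their own, read by 160 probe sets. There were 6 core subunits, 28 accessory subunits and 5 assembly factors of complex I, 4 genes of complex II, 9 of complex III, Cycs, 16 genes of complex IV and 17 of the ATP synthase. Subunits encoded by the mitochondrial genome are not among them.

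Total RNA of transplanted mouse hearts was hybridised to 6 arrays, 1 for each group. The groups were an untreated syngraft, an untreated allograft, and allografts of mice given 1 of 4 agents. ABH4 (4-amino tetrahydrobiopterin) and BH4 (tetrahydrobiopterin, the cofactor of the nitric oxide synthases) were each given at 50 mg/kg every 8 h. The dose of NIL (N-imino ethyl-L-lysine), which inhibits the inducible nitric oxide synthase, was 5 mg/kg, also every 8 h. The dose of CsA (cyclosporin A), an immunosuppressant that inhibits calcineurin, was 15 mg/kg every 24 h. The labels give no strain, no day of removal and no number of hearts per array, so the syngraft is the only reference for the operation itself. With 1 array per group there is no replicate, no error can be attached to a difference, and no test was made. Values are signals rescaled to a common array median, and differences are on the log2 scale. A fold of 1.5 was used to count members as higher or lower, and a direction is given with the scalings that turn it.

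Electrons from NADH enter the chain at complex I and electrons from succinate at complex II. They pass through complex III and cytochrome c to complex IV, which reduces oxygen, and the proton gradient built on the way drives the ATP synthase. Heart muscle is among the tissues richest in these complexes, and it also uses muscle forms of some complex IV subunits (Cox6a2, Cox7a1 and Cox8b) in place of forms found in most tissues (Cox6a1, Cox7a2 and Cox8a). Nuclear genes of the chain are known targets of the transcription factors NRF1, GABP (an ETS factor) and YY1.

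Because the muscle and common forms of complex IV subunits moved apart on these arrays, their promoters are shown beside those of Atp5k, the member with the largest difference between allograft and syngraft, and of Cycs. Each is the stretch from 200 bases before to 10 bases after the start site, from RefSeq on GRCm38.p6. They lie at chr5:115348949-115349158 on the minus strand (Cox6a1), chr19:7217607-7217816 on the minus strand (Cox8a), chr7:30183971-30184180 on the plus strand (Cox7a1), chr7:140900437-140900646 on the minus strand (Cox8b), chr5:108434390-108434599 on the minus strand (Atp5k) and chr6:50566560-50566769 on the minus strand (Cycs). Capitals mark matches to the NRF1 core GCATGCGC or the ETS core CCGGAAG on either strand.
Cox6a1: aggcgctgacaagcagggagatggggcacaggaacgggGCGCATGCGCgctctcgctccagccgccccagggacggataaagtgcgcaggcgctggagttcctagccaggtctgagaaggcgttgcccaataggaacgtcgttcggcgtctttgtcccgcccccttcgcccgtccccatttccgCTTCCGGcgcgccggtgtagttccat
Cox8a: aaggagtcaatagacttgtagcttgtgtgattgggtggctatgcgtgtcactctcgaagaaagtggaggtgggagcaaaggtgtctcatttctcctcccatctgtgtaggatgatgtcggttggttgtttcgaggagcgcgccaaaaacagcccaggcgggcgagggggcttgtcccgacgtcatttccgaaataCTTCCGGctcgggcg
Cox7a1: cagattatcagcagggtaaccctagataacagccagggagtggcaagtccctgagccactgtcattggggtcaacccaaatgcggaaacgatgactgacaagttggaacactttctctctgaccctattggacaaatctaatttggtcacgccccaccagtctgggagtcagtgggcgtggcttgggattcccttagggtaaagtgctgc
Cox8b: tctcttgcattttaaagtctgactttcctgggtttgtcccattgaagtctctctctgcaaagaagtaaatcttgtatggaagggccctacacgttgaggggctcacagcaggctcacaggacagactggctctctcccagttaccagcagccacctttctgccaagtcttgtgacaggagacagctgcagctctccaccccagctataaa
Atp5k: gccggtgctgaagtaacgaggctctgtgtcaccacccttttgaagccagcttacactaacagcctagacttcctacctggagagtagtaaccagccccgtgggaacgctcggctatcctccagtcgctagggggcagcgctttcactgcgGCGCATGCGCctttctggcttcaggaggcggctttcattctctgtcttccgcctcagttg
Cycs: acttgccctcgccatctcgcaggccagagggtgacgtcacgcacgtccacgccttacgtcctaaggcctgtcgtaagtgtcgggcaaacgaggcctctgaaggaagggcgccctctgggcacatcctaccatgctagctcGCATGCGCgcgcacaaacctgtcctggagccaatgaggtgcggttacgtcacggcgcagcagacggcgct

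The common forms Cox6a1 and Cox8a each held at least 1 of these cores in this stretch. The muscle forms Cox7a1 and Cox8b held none, and neither did the common form Cox7a2. For the third muscle form, Cox6a2, no promoter was read, so the contrast of muscle and common forms is incomplete. In Cox6a1 and Atp5k the NRF1 core occurred on both strands, overlapping itself at positions -162 and -160 of Cox6a1 and at -50 and -48 of Atp5k. Cycs held it at -60. Promoter windows of 300 bases (250 before and 50 after the start) were on hand for 71 of the 86 members. The NRF1 core was found in 12 of them, or 16.9%, against 5.01% of the 9888 genes on the array with a window and 3.05% of all 27025 genes with a window. The ETS core was found in 18, or 25.4%, against 16.3% and 9.93%, and the YY1 core AAGATGG in 10, or 14.1%, against 7.86% and 7.28%. At least 1 of the 3 was in 34 members, or 47.9%, against 26.3% and 18.6%. A match is a string of letters and not a shown binding site, and a window without one says nothing of the factor.

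The members were among the brightest genes on every array. Of the 86, 70 had a mean log2 signal of at least 10 (a signal of 1024), and 84 lay above the floor of 34.8 on all 6 arrays. Only Cox6b2, the testis form of a complex IV subunit, and Cox7c lay at the floor on any array. They also differed little between arrays. The median ratio of a member's highest to its lowest array was 1.36-fold, and 2 members (2.33%), Cox8b and Atp5k, reached 2-fold. A reference of 625 other genes with a mean log2 signal of at least 10 was chosen after the data were seen. Of these, 115 (18.4%) reached 2-fold and the median ratio was 1.48-fold. Only 70 of the 86 members pass that cut, so the sets are not matched for brightness. The mean was taken over 6 arrays, mostly of allografts, so genes high in allografts passed more readily.

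Deposited array medians ran from 77.7 to 88.5, and setting them equal took shifts from -0.09 to 0.10 in log2 units. That is small, but so are the differences between members, so the scaling decides several directions. In allograft minus syngraft the median of the 625 other bright genes was 0.22 after median scaling, 0.04 in the deposited values and 0.03 after quantile normalization, and in CsA minus allograft it was -0.23, -0.05 and -0.01. The distance between the members and these bright genes is given beside the medians. A shift of a whole array moves both nearly alike. In allograft minus syngraft the distance was -0.28 after median scaling and in the deposited values, and -0.30 after quantile normalization. In CsA minus allograft it was 0.19, 0.18 and 0.17. Other choices of probe set gave -0.26 and -0.29 in the first comparison and 0.19 and 0.20 in the second. Heart muscle itself was plain on all arrays. The summed signal of 18 cardiomyocyte markers was highest in the syngraft (110688), next highest with CsA (102293) and lowest with ABH4 (84056).

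**Figure D1:**
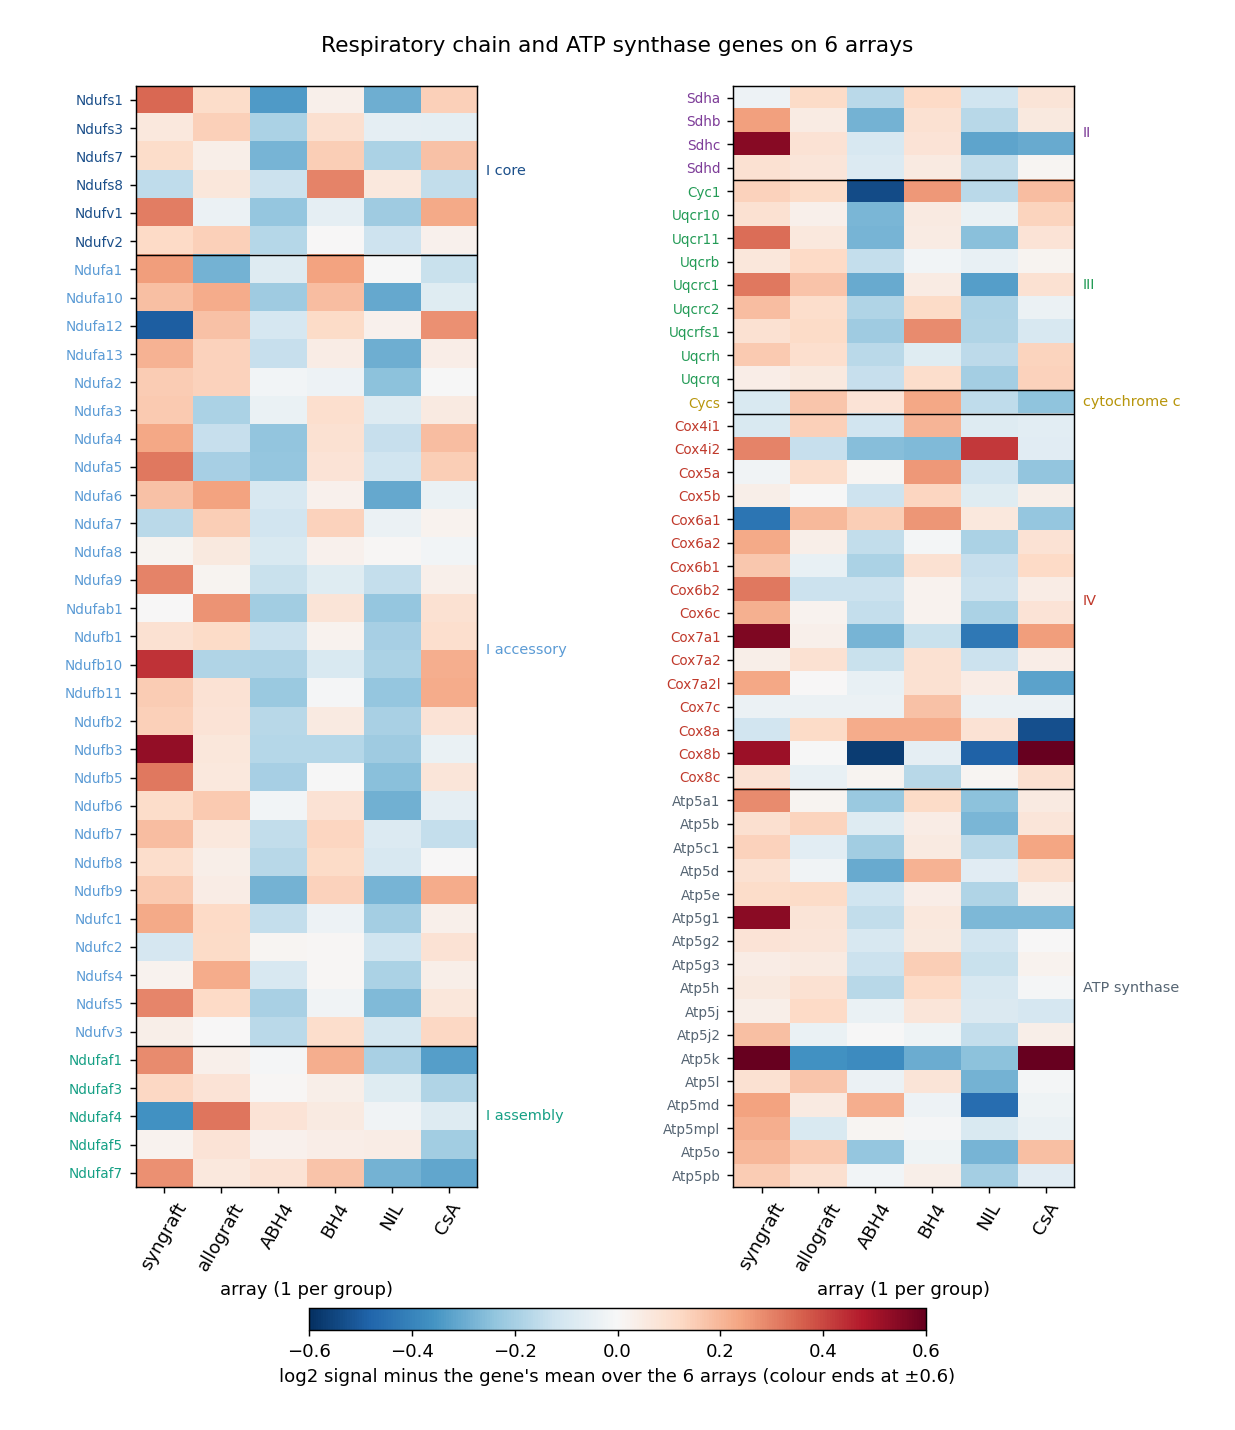
Heat map of the 86 members (rows, grouped by complex) on the 6 arrays (columns, 1 per group). Colour is the log2 signal minus the gene's mean over the arrays, in a range of 0.6 either way. The syngraft column is the highest for 39 members, and the NIL and ABH4 columns are the lowest for 36 and 29. The NIL column is the lowest for 12 or 13 in the other scalings. Such counts were not made for other genes.

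After median scaling the lowest array was NIL for 36 and ABH4 for 29 of the 84 members above the floor, and the highest was the syngraft for 39. In the deposited values ABH4 was lowest for 51 and NIL for 12, and after quantile normalization for 45 and 13. The syngraft was highest for 56 and 51. Such counts were not made for other genes. After median scaling 43.7% of all genes and 73.1% of the other bright genes were lower with ABH4 than in the allograft. With NIL 46.1% and 82.9% were.

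Between the untreated allograft and the syngraft the chain as a whole stood a little lower in the allograft. The members' median difference was -0.06, and it was -0.25 in the deposited values and -0.27 after quantile normalization. Relative to the median of the other bright genes it was -0.28, and 78 of 86 members lay below that median. At 1.5-fold, 3 members were higher (Ndufaf4, Ndufa12 and Cox6a1) and 2 were lower (Atp5k and Ndufb10), against 15.4% of all genes higher and 11.9% lower, and against 26.6% and 4.8% of the other bright genes. In the deposited values none was higher and 10 were lower, and after quantile normalization none and 9. The shares above are those of median scaling, so these counts have none beside them. Leukocyte signal moved in the same comparison: the summed signal of 10 T and cytotoxic lymphocyte genes was 420 in the syngraft and 8226 in the allograft, and its part in the members' position was not tested. In such bulk RNA fewer heart muscle cells and less RNA per cell cannot be told apart.

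With CsA the members stood higher relative to other bright genes than in the untreated allograft. Their median against the allograft was -0.04 after median scaling, but 0.13 in the deposited values and 0.16 after quantile normalization. It lay 0.19 above that of the other bright genes, and 14 of 86 members lay below theirs. The part that the choice of these bright genes has in this distance was not tested either. At 1.5-fold, Atp5k and Cox8b were higher and Cox8a was lower, against 9.27% of all genes higher and 12.2% lower, and 2.72% and 20.2% of the other bright genes. Cox8a did not reach 1.5-fold in either other scaling. The summed lymphocyte signal with CsA was 901.

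With the pteridines and NIL the members stayed nearer to the other bright genes, although ABH4 and NIL gave lower medians than CsA after median scaling. With BH4 the median was -0.01 (0.00 in the deposited values, just above 0, and -0.02 after quantile normalization), and no member differed 1.5-fold, against 4.89% of all genes higher and 3.36% lower, and 2.24% and 0.32% of the bright ones. With ABH4 the median was -0.20, with -0.15 and -0.12 in the other scalings, and 76 of 86 members were lower by any amount, as were 43.7% of all genes and 73.1% of the other bright genes. Cyc1 alone was 1.5-fold lower, against 2.49% of all genes and 0.48% of the bright ones, and none was higher, against 3.19% and 1.92%. After quantile normalization Cyc1 did not reach 1.5-fold. With NIL the median was -0.22, with -0.07 and -0.05 in the other scalings. Of the members 77 were lower by any amount, against 46.1% of all genes and 82.9% of the bright ones, and none reached 1.5-fold, against 6.36% of all genes higher and 5.32% lower, and 0.32% and 3.2% of the bright ones. Relative to the bright genes the members lay at -0.09 with ABH4, -0.03 with NIL and -0.01 with BH4. The 4 treatment comparisons share the untreated allograft array, so a low or high value on it moves all their differences together.

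**Figure D2:**
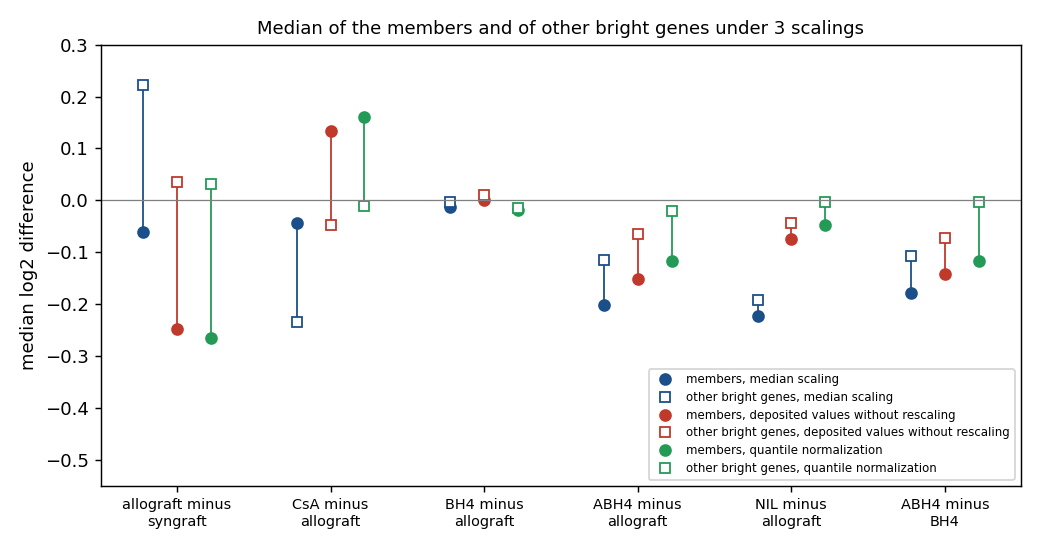
Median log2 difference (vertical axis) of the 86 members (filled circles) and of 625 other bright genes (open squares) in 6 comparisons, in 3 scalings shown by colour. The members lie below the bright genes by 0.28 to 0.30 in allograft minus syngraft and above them by 0.17 to 0.19 in CsA minus allograft, while the members' median with CsA changes sign. The bright genes were picked by their mean over the 6 arrays, mostly of allografts.

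Complex I is the NADH dehydrogenase. Its core subunits carry the flavin and the iron-sulphur clusters. The median of the 6 in allograft minus syngraft was -0.02, with -0.21 in the deposited values, and they ran from -0.34 for Ndufv1 to 0.22 for Ndufs8. Ndufv1, which binds NADH, gave 2388 in the syngraft, 1886 in the allograft, 1645 with ABH4, 1859 with BH4, 1668 with NIL and 2259 with CsA. The syngraft and CsA arrays were its highest on this probe set. Another probe set of Ndufv1 gave 2117 in the syngraft, 1984 in the allograft, 2125 with BH4 and 1549.9 with CsA. It thus differed in sign for CsA minus allograft. The third had the sign of the first there, at 2388 in the syngraft, 1758 in the allograft, 1567 with BH4 and 1970 with CsA. Ndufs8, an iron-sulphur subunit, gave 1665 in the syngraft, 1938 in the allograft, 1692 with ABH4, 2276 with BH4, 1936 with NIL and 1673 with CsA, but 2 of its 5 other probe sets differed in sign between allograft and syngraft. With ABH4 all 6 core subunits were lower than in the allograft in all 3 scalings. After median scaling 43.7% of all genes and 73.1% of the other bright genes were lower too. The core subunits' median was -0.31 after median scaling, or -0.20 relative to the other bright genes. The furthest was Ndufs1, the largest core subunit, at 1329 in the syngraft, 1128 in the allograft, 827 with ABH4, 1068 with BH4, 855 with NIL and 1156 with CsA. ABH4 and NIL were its lowest arrays.

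The 28 accessory subunits, which surround the core and stabilise it, held both extremes of complex I. Ndufb10 gave 1471 in the syngraft, 960.2 in the allograft, 959 with ABH4, 1022 with BH4, 954 with NIL and 1269 with CsA. Only the syngraft and CsA arrays were clearly above the rest. The allograft was 1.53-fold below the syngraft, and CsA was 1.32-fold above the allograft. Ndufa12 went the other way, with 1597 in the syngraft, 2541 in the allograft, 2095 with ABH4, 2435 with BH4, 2287 with NIL and 2714 with CsA, a 1.59-fold higher value in the allograft than in the syngraft. A second probe set of the gene differed in sign, at 1494 in the syngraft and 1211 in the allograft. Another bright one had the sign of the first, at 1355 in the syngraft and 2283 in the allograft. The probe sets thus give Ndufa12 opposite directions.

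Ndufa1, a small subunit that anchors to the membrane, gave 4027 in the syngraft, 2777 in the allograft, 3207 with ABH4, 3996 with BH4, 3381 with NIL and 3087 with CsA. The untreated allograft was its lowest array, and the BH4 array came within a few percent of the syngraft. Its difference of 1.44-fold between BH4 and the allograft was the largest of any member in that comparison after median scaling. Ndufa4, which carries a complex I symbol but is now counted to complex IV, gave 4163 in the syngraft, 3227 in the allograft, 3017 with ABH4, 3787 with BH4, 3226 with NIL and 4036 with CsA. The syngraft and CsA were its highest arrays. Its sign against the allograft turned with the scaling for ABH4 and NIL. Ndufa8 varied least of all members, with a range of 0.15 on the log2 scale over the 6 arrays.

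With ABH4 26 of the 28 accessory subunits were lower than in the allograft (24 in the deposited values, 23 after quantile normalization). After median scaling 43.7% of all genes and 73.1% of the other bright genes were lower. The accessory subunits' median was -0.24. The furthest was Ndufab1, the acyl carrier protein, at 2116 in the allograft and 1517 with ABH4. With NIL 25 were lower after median scaling (19 and 17 in the other scalings), a share close to the 82.9% of other bright genes. The furthest there was Ndufa6, with 1396 in the syngraft, 1463 in the allograft, 1158 with ABH4, 1261 with BH4, 999 with NIL and 1204 with CsA.

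The 5 assembly factors, which help to build complex I and are not part of it, had a median of -0.04 in allograft minus syngraft and -0.22 with NIL. With CsA all 5 were lower than in the allograft in all 3 scalings, from -0.40 to -0.26 after median scaling, as were 45.5% of all genes and 76.6% of the other bright genes. The core and accessory subunits had medians of -0.04 and -0.03 there, and of 0.15 and 0.16 in the deposited values. With ABH4 the factors' median was -0.05. Their signals were modest, between 72.5 and 483. Ndufaf4 gave 301 in the syngraft, 483 in the allograft, 409 with ABH4, 402 with BH4, 380.5 with NIL and 367 with CsA. The syngraft was its lowest array, 1.61-fold below the allograft. Ndufaf1 gave 296 in the syngraft, 248 in the allograft, 242 with ABH4, 283 with BH4, 213 with NIL and 194 with CsA. Its lowest array was CsA.

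**Figure D3:**
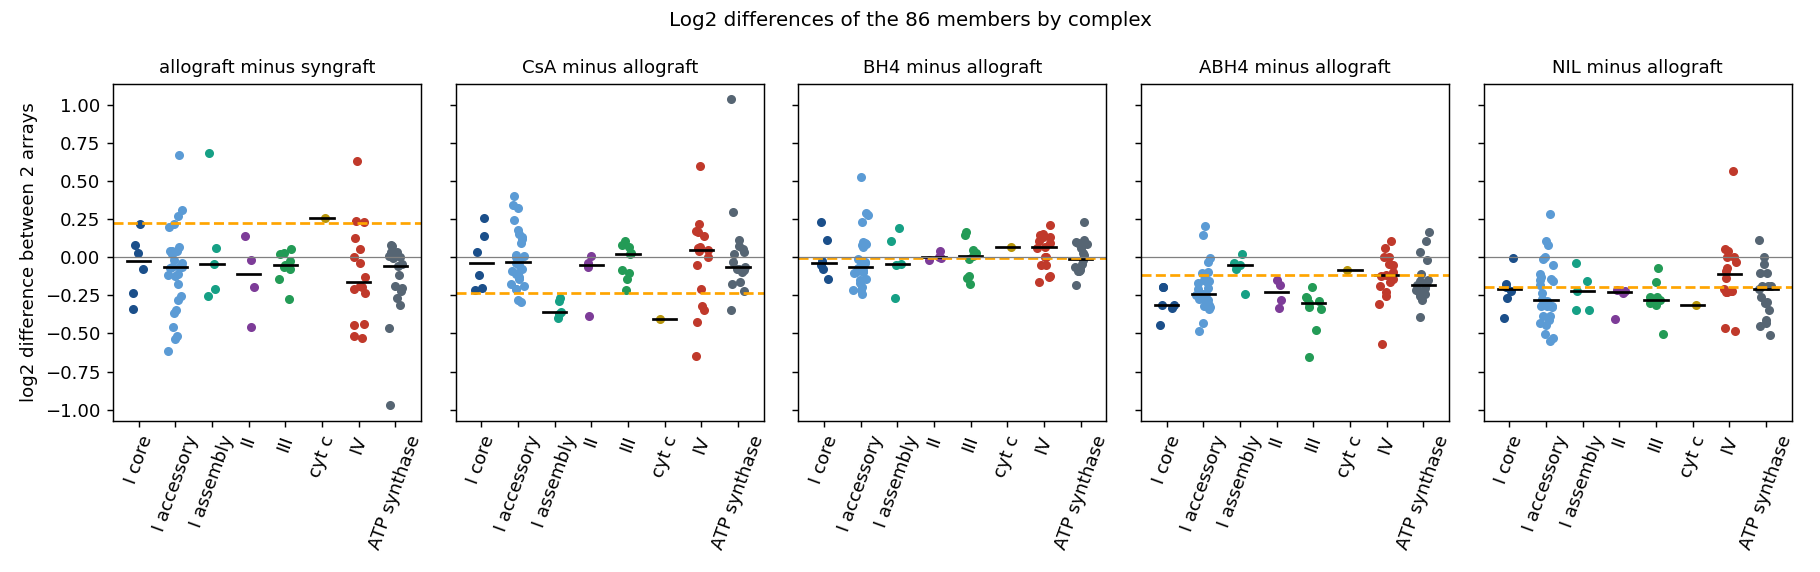
Log2 differences between 2 arrays (vertical axis) for each member (points) by complex (horizontal axis) in 5 comparisons after median scaling. Black bars are group medians, the grey line is 0 and the dashed orange line is the median of 625 other bright genes. With ABH4 all points of the complex I core, complex II and complex III lie below 0, and with CsA all 5 assembly factors do. With ABH4 43.7% of all genes and 73.1% of the other bright genes lay below 0. With CsA 45.5% and 76.6% did.

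Complex II, succinate dehydrogenase, links the chain to the citrate cycle. Sdha, the flavoprotein, gave 1801 in the syngraft, 1989 in the allograft, 1640.3 with ABH4, 1995 with BH4, 1694 with NIL and 1940.5 with CsA. ABH4 and NIL were the lowest, and the direction of its allograft difference from the syngraft turned with the scaling. Sdhb, the iron-sulphur subunit, gave 3892 in the syngraft, 3401 in the allograft, 2695 with ABH4, 3504 with BH4, 2929 with NIL and 3425 with CsA, and was 1.26-fold lower with ABH4 than in the allograft. Sdhd, a membrane anchor, gave 2284 in the syngraft, 2253 in the allograft, 2028 with ABH4, 2227 with BH4, 1936 with NIL and 2158 with CsA. All 4 genes were lower than in the allograft with ABH4, and with NIL, in all 3 scalings, where 73.1% and 82.9% of the other bright genes were lower after median scaling. A second, dim probe set of Sdhd differed in sign in both. Medians were -0.23 and -0.22, or -0.11 and -0.03 relative to the other bright genes.

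Sdhc, the other membrane anchor, gave 1363 in the syngraft, 992 in the allograft, 874 with ABH4, 988 with BH4, 749 with NIL and 758 with CsA. The syngraft was its highest array. Unlike the other genes of complex II, it was about as low with CsA as with NIL. Its second probe set differed in sign both between allograft and syngraft and between CsA and allograft.

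Complex III, the cytochrome bc1 complex, passes electrons from ubiquinol to cytochrome c. On the probe sets used, its 9 genes were close together in allograft minus syngraft, from -0.27 for Uqcr11 to 0.05 for Uqcrb. The direction for Uqcrb turned with the scaling, and its other probe set gave -0.49. Dimmer probe sets of Uqcr10 gave -0.33 and -0.56, against -0.06 on the one used. With ABH4 all 9 were lower than in the allograft in all 3 scalings, with a median of -0.30 after median scaling, or -0.19 relative to the other bright genes. With NIL 9 were lower after median scaling and 8 in each other scaling, with a median of -0.28. Of the other bright genes 73.1% were lower with ABH4 and 82.9% with NIL. Uqcrc1, a core protein, gave 3649.9 in the syngraft, 3302 in the allograft, 2374 with ABH4, 3029 with BH4, 2330.0 with NIL and 3124 with CsA. ABH4 and NIL stood apart from the other arrays. Uqcrfs1, the Rieske iron-sulphur protein, gave 2893 in the syngraft, 2945 in the allograft, 2347 with ABH4, 3306 with BH4, 2397 with NIL and 2541 with CsA, with BH4 the highest.

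Cyc1, the cytochrome c1 of this complex, gave 4434 in the syngraft, 4363 in the allograft, 2776 with ABH4, 4824 with BH4, 3595 with NIL and 4575 with CsA. ABH4 was well below every other array, 1.57-fold below the allograft and 1.74-fold below BH4. Only 1 probe set reads the gene, so this has no second reading. Between the 2 pteridines, given at the same dose and interval, the members' median in ABH4 minus BH4 was -0.18, with -0.14 and -0.12 in the other scalings. Of the members 76 were lower with ABH4 by any amount, as were 42.2% of all genes and 70.7% of the other bright genes. Cyc1 was the 1 member 1.5-fold lower, against 4.1% of all genes and 1.76% of the bright ones, and none was higher, against 3.24% and 0.16%. With 1 array each, no interval can be put on the difference between the 4-amino analog and the cofactor.

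Cytochrome c (Cycs) carries electrons from complex III to complex IV and also takes part in apoptosis. It gave 3327 in the syngraft, 3972 in the allograft, 3749.9 with ABH4, 4166 with BH4, 3191 with NIL and 2994 with CsA. The allograft was 1.19-fold above the syngraft and CsA 1.33-fold below the allograft. In both comparisons 1 of its 2 other probe sets differed in sign.

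Complex IV, cytochrome c oxidase, hands the electrons to oxygen, and its genes ran from -0.53 for Cox7a1 to 0.63 for Cox6a1 in allograft minus syngraft. Both ends were thus held by subunits that come in a muscle and a common form. Cox6a1, the common form, gave 2257 in the syngraft, 3503 in the allograft, 3386 with ABH4, 3677 with BH4, 3195 with NIL and 2609 with CsA. Only CsA came near the syngraft, and the allograft was 1.55-fold above it. Cox6a2, the heart and skeletal muscle form, gave 5824 in the syngraft, 5102 in the allograft, 4485 with ABH4, 4936 with BH4, 4361 with NIL and 5281 with CsA. The syngraft and CsA were here the highest. Relative to the syngraft, the log2 difference of the muscle form minus the common form lay at -0.83 in the allograft, a 1.77-fold shift. It lay at -0.96 with ABH4, -0.94 with BH4 and -0.92 with NIL, and at -0.35 with CsA.

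Cox7a1, the muscle form, gave 1230.3 in the syngraft, 853 in the allograft, 689 with ABH4, 762 with BH4, 619.9 with NIL and 993 with CsA. Cox7a2, the common form, gave 5296 in the syngraft, 5509.8 in the allograft, 4709 with ABH4, 5512 with BH4, 4731 with NIL and 5314 with CsA. The muscle form again ordered the arrays with syngraft and CsA on top, while the common form separated only ABH4 and NIL from the rest. Relative to the syngraft, Cox7a1 minus Cox7a2 lay at -0.58 in the allograft, -0.67 with ABH4, -0.75 with BH4, -0.83 with NIL and -0.31 with CsA.

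Cox8b, the muscle form, had the widest range of all members, with 2530.3 in the syngraft, 1771 in the allograft, 1196 with ABH4, 1707 with BH4, 1265 with NIL and 2687 with CsA. CsA and syngraft were highest, and ABH4 and NIL lowest. CsA was 1.52-fold above the allograft. Cox8a, the common form, gave 2079 in the syngraft, 2445 in the allograft, 2631 with ABH4, 2629 with BH4, 2391 with NIL and 1563 with CsA. CsA was its lowest array, 1.56-fold below the allograft. Of its 2 other probe sets, 1 differed in sign there, at 39.9 in the allograft and 48.0 with CsA, close to the floor of 34.8. The other had the same sign, at 2420 in the allograft and 1568 with CsA. Cox8b minus Cox8a, relative to the syngraft, lay at -0.75 in the allograft, -1.42 with ABH4, -0.91 with BH4 and -1.20 with NIL, and at 0.50 with CsA. All 3 pairs kept these signs after quantile normalization, and a rescaling of whole arrays cannot alter them. Cox6a2, Cox7a1 and Cox8b are each read by 1 probe set. The summed signal of 10 skeletal muscle markers, nearly all from Acta1 in the syngraft, was 6213 in the syngraft, 1821.5 in the allograft, 1714 with ABH4, 2018 with BH4, 1796 with NIL and 2427 with CsA. That of 6 adipose markers was 2790.0 in the syngraft, 1355 in the allograft, 1221 with ABH4, 1395 with BH4, 1174 with NIL and 2231 with CsA. Syngraft and CsA were the highest arrays in both sums, as for Cox7a1, Cox8b and Atp5k. They were also the highest in the summed cardiomyocyte markers, at 110688 in the syngraft and 102293 with CsA. The same held for the fibroblast sum (31055 and 27458) and the endothelial sum (2128 and 1810). In the lymphocyte and macrophage sums they were the lowest arrays. At the floor on all arrays were 5 of the 10 skeletal muscle and 3 of the 6 adipose markers. The skeletal muscle and adipose sums thus rest on the other genes of each list and do not establish that either tissue was there. Any part of such tissue in the members' values was not tested.

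**Figure D4:**
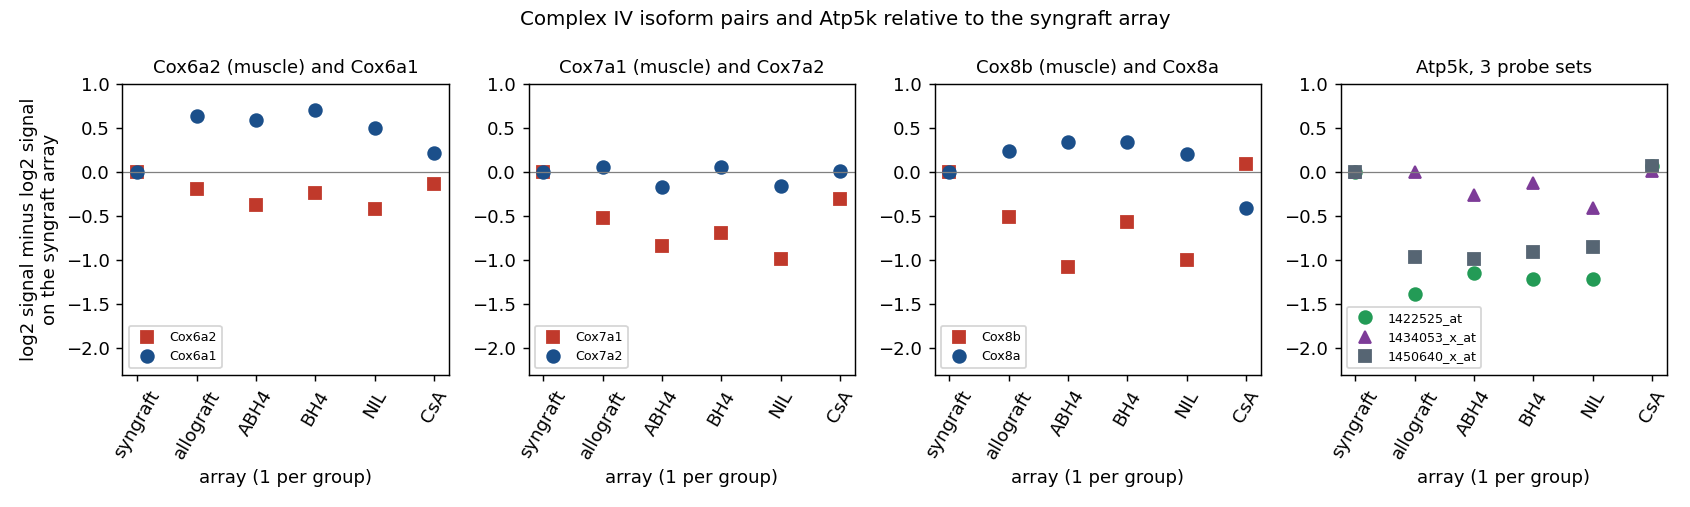
Log2 signal relative to the syngraft array (vertical axis) on the 6 arrays (horizontal axis, 1 per group) for 3 pairs of complex IV forms (muscle form, red squares; common form, blue circles) and for the 3 probe sets of Atp5k. The muscle form lies below the common form in the allograft, ABH4, BH4 and NIL arrays in every pair, and CsA lies nearest to the syngraft for Cox6a and Cox7a.

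Cox4i1, the usual form of subunit 4, gave 3996 in the syngraft, 4706 in the allograft, 3943 with ABH4, 4914 with BH4, 4035 with NIL and 4081 with CsA, with allograft and BH4 above the others. Cox4i2, a form best known from lung and low oxygen, was dim, at 104 in the syngraft, 76.5 in the allograft, 70.6 with ABH4, 70.1 with BH4, 113 with NIL and 80.3 with CsA. Its NIL value was 1.48-fold above the allograft, the highest of any member in that comparison, at a low signal. Over the complex as a whole the 16 genes had a median of -0.16 in allograft minus syngraft, -0.12 with ABH4 and -0.11 with NIL, and 0.05 with CsA. After quantile normalization the medians with ABH4 and NIL were 0.00. Cox7c, an abundant subunit in heart, was listed at the floor on 5 of the 6 arrays by its 2 probe sets, so these probe sets give no level for it.

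The ATP synthase combines a catalytic head (Atp5a1, Atp5b, Atp5c1, Atp5d and Atp5e), a ring of subunit c in the membrane, and stalk and membrane subunits. Its 17 genes had a median of -0.06 in allograft minus syngraft. All 17 lay below the median of the other bright genes, and 11 were below 0 after median scaling and all 17 in both other scalings. In the same comparison 37.6% of all genes and 32.2% of the other bright genes were below 0. Apart from Atp5k and Atp5g1 the genes lay between -0.31 (Atp5mpl) and 0.08 (Atp5j). Atp5b, the catalytic subunit, gave 5192 in the syngraft, 5329 in the allograft, 4592 with ABH4, 5002 with BH4, 4013 with NIL and 5103 with CsA, and turned sign with the scaling between allograft and syngraft. Atp5j, a stalk subunit at the upper end of the group, gave 3208 in the syngraft and 3394 in the allograft, also with a sign that turned. Against the syngraft all 17 were lower with ABH4 and all 17 with NIL in all 3 scalings, where 40.6% and 40.1% of all genes and 40.8% and 46.1% of the other bright genes were lower.

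Subunit c, which forms the rotating ring, is made from 3 genes for 1 mature protein. Atp5g1 gave 4135 in the syngraft, 3000.4 in the allograft, 2565 with ABH4, 2971 with BH4, 2361 with NIL and 2359 with CsA. The syngraft stood well above every allograft, CsA included. Atp5g2 gave 2156 in the syngraft, 2148 in the allograft, 1907 with ABH4, 2122 with BH4, 1882 with NIL and 2040.0 with CsA. Atp5g3 gave 5301 in the syngraft, 5336 in the allograft, 4695 with ABH4, 5684 with BH4, 4679 with NIL and 5214 with CsA. In both, the untreated allograft came close to the syngraft after median scaling, and the sign for Atp5g3 turned with the scaling.

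Atp5k, subunit e, which takes part in pairing of the synthase into dimers, was the member furthest apart in allograft minus syngraft and in CsA minus allograft. It gave 3618 in the syngraft, 1845 in the allograft, 1824 with ABH4, 1927 with BH4, 1996 with NIL and 3791 with CsA. The arrays fell into a high pair, syngraft and CsA, and 4 low ones with no overlap. The allograft was 1.96-fold below the syngraft and CsA 2.06-fold above the allograft. A second probe set gave 4164 in the syngraft, 1600 in the allograft, 1884 with ABH4, 1791 with BH4, 1791 with NIL and 4363 with CsA, the same 2 levels. The third did not show them, with 1435 in the syngraft, 1433 in the allograft, 1193 with ABH4, 1315 with BH4, 1076 with NIL and 1447 with CsA. Atp5l (subunit g), its partner in the membrane, gave 2560.2 in the syngraft, 2698 in the allograft and 2385 with CsA, with no such split.

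The citrate cycle supplies the chain with NADH and succinate. Its 16 measured genes (of 18 listed) had medians of -0.06 in allograft minus syngraft, -0.02 with CsA, -0.30 with ABH4 and -0.31 with NIL, and none was 1.5-fold apart in the first comparison, 2 were lower with CsA and with ABH4 each, and 3 with NIL. Suclg1, a succinyl-CoA ligase subunit, was the lowest with ABH4, at -0.68. The 10 transporters and energy transfer genes had a median of 0.05 in allograft minus syngraft and -0.26 with ABH4. Assembly factors outside the symbol rule (19 of 25 measured) had medians of 0.23 in allograft minus syngraft, with 4 higher and 1 lower, and -0.23 with CsA, with 5 lower. The furthest was Atpaf2, an ATP synthase assembly factor, at 1.44 and -1.51. Sdhaf1, a complex II assembly factor, lay at -0.84 in the first. The 13 regulators of mitochondrial biogenesis had a median of 0.17 in allograft minus syngraft, with Tfb1m at 0.73 and Ppargc1b at -0.49. Ppara was the furthest with ABH4, at -1.05. The 74 mitochondrial ribosomal protein genes had a median of 0.28 in allograft minus syngraft, with 17 higher and 2 lower, and the 48 cytosolic ones 0.23, with 4 higher and 1 lower. With CsA both had -0.19. The 16 glycolysis genes had 0.08 in allograft minus syngraft, with 5 higher and 3 lower, and -0.37 with CsA, with 5 lower. At 1.5-fold after median scaling, 15.4% of all genes were higher and 11.9% lower in allograft minus syngraft. Of the other bright genes 26.6% and 4.8% were. With CsA 12.2% of all genes were lower, with ABH4 2.49% and with NIL 5.32%. Among the other bright genes these shares were 20.2%, 0.48% and 3.2%.

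Markers of the cells that a graft can hold were read on the same arrays. The 18 cardiomyocyte markers had medians of -0.13 in allograft minus syngraft, 0.06 with CsA, -0.03 with BH4, -0.26 with ABH4 and -0.13 with NIL, and Ckm, muscle creatine kinase, lay at -1.87, 1.44 and 0.69 in the first 3 of these. The 10 lymphocyte genes had 3.58 in allograft minus syngraft, -3.11 with CsA and 0.05 with ABH4, and 9 macrophage genes had 0.75, -0.16 and 0.08. The 8 fibroblast and matrix genes had -2.96, 2.64 and 1.12, and 7 endothelial genes -0.57, 0.40 and 0.13. Of 10 skeletal muscle markers 5 were at the floor on all arrays, their median was 0.00 throughout, and Acta1 lay at -2.05 in allograft minus syngraft. Of 6 adipose markers Ucp1, Adipoq and Lep were at the floor on all arrays, and the list's median was -0.14 in allograft minus syngraft. The skeletal and adipose medians are held near 0 by genes at the floor, and their summed signals, given beside the complex IV forms, were highest in the syngraft and next highest with CsA. The summed cardiomyocyte, fibroblast and endothelial signals had the same order. Whether the makeup of the grafts accounts for any position of the members was not tested.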

How the data were processed

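The authors deposited a linear signal intensity for each of 22690 probe sets on 6 Affymetrix arrays, and the mean after trimming 2% at each end was 200 to 3 digits on all, as read from the values. Scanner software, summarisation, background correction and dates are not given in the sources used here. The number of arrays limits the precision.

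Each array was rescaled to the mean of the 6 medians over 22626 probe sets other than controls, floored at the 30th percentile (34.8, or 5.12 on the log2 scale), and log2 was taken. A gene took its brightest probe set among the 20380 listed for 1 gene. The 8 probe sets listed for a member and another gene were left out. Alternatives were the deposited values, quantile normalization, floors at the 10th and 50th percentiles, the mean over probe sets, and leaving out _x_ and _s_ probe sets. The named genes were members at least 1.5-fold apart, the extremes of each complex in allograft minus syngraft, isoform pairs, complex II genes, Cyc1, Cycs and the furthest genes of each list. Others were named after their values were seen. Members and lists were chosen with earlier results of these data known. Symbols came from the platform annotation, and a check against symbols updated through RefSeq (GRCm38.p6) added no member. Protein sequences were not used here. Python 3.11.15, pandas 2.3.3 and numpy 2.4.6 were used, and the steps were tested on simulated data.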

Additional observations from a re-analysis of the deposited data

How the results depend on the processing

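The members' median differences kept their sign except in 2 comparisons. CsA minus allograft gave 0.13 in the deposited values and 0.16 after quantile normalization, and BH4 minus allograft gave 0.0012 in the deposited values. Without rescaling, allograft minus syngraft gave -0.25, with 0 members higher and 10 lower. After quantile normalization it gave -0.27, with 0 higher and 9 lower. CsA minus allograft had 0 members lower in either scaling, 4 higher after quantile normalization, and 3 lower with the mean over probe sets. BH4 minus allograft had 2 higher with the floor at the 10th percentile. ABH4 minus allograft had 0 lower after quantile normalization. NIL minus allograft gave -0.0741 in the deposited values, with 1 higher, and -0.0477 after quantile normalization. It had 1 lower with the floor at the 10th percentile and 1 lower with the mean over probe sets. ABH4 minus BH4 had 2 lower with the floor at the 10th percentile, and 1 higher and 3 lower without _x_ and _s_ probe sets. The cause of these shifts was not tested, and the shares of other genes given above are those of median scaling only. No paired analysis was possible because each group had 1 array and the labels give no replicate numbers.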

Other observations

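Of the 16 measured glycolysis genes some exist in a muscle and a widely expressed form. They are listed after their values were seen and support nothing about complex IV. In allograft minus syngraft, with signs that held in all 3 scalings, phosphofructokinase lay at -0.79 for the muscle form Pfkm and at 1.05 for Pfkp. Phosphoglycerate mutase lay at -0.52 for the muscle form Pgam2 and at 1.12 for Pgam1, and the glucose transporters at -0.93 for the muscle and fat form Slc2a4 and at 1.46 for Slc2a1. In CsA minus allograft the muscle forms lay at 0.25 (Pfkm), 0.05 (Pgam2) and 0.20 (Slc2a4), and the others at -0.78 (Pfkp), -0.95 (Pgam1) and -1.01 (Slc2a1). The third phosphofructokinase, Pfkl, lay at 0.09 between allograft and syngraft, with a sign that turned with the scaling. Eno3, the muscle enolase, lay at -0.73 in the first comparison and at -0.04 with CsA, where its sign turned with the scaling, and Eno1 was not analysed here. The part of leukocytes in these values was not tested.

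Probe sets listed for a member and a second gene entered no comparison. The one listed for Ndufa11 and Ndufa11b gave -0.59 in ABH4 minus allograft and -0.62 in ABH4 minus BH4. The one listed for Ndufs6 and Ndufs6b went the other way, at 0.33 and 0.44.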
